A study of Mus musculus with 18 samples.

Results

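The retina of DBA/2J mice was compared 5 days after crush of the optic nerve with the retina of DBA/2J mice whose nerve had not been crushed. These are 6 of the 18 arrays of the series, 3 at 5 days and 3 controls, and they were chosen by strain and time alone. The crushed animals had been anaesthetised and the nerve reached through the conjunctiva before it was grasped with cross-clamp forceps. The controls were naive, with no sham operation, so crush and surgery cannot be told apart. All mice were labelled male and were 60 to 90 days old, before the age at which the strain shows its pigmentary glaucoma. Each array carried total RNA from 2 retinas, and the study describes the 3 samples of a group as independent. The p-values below rest on the spread between arrays within all 6 groups of strain and time in the series. Another 3 arrays of DBA/2J at 2 days and 6 of C57BL/6J, control and 5 days, are given where the 5-day change is set against them. All 18 arrays entered the fit and its estimate of the error, and with the 2 groups fitted alone 3 probes were called in place of 31.

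Axons of retinal ganglion cells form the optic nerve, and crushing it cuts these cells off from their targets in the brain. In rodents the cell bodies first switch on genes of axon growth, many then die by apoptosis over the following weeks, and Mueller glia and microglia become reactive. The photoreceptors and bipolar cells, which send no axon through the nerve, are not injured directly. DBA/2J carries mutations in 2 pigment genes, Gpnmb and Tyrp1, that in old animals give iris disease and raised eye pressure.

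Signal was read for 46116 probes, of which 29534 carry 1 gene symbol, for 17655 genes in all. Each array's log2 signal was put on a scale with a mean of 8 and an SD of 2. On the 6 arrays 1 unit of this scale stood for 0.529 to 0.617 log2, with a median of 1.47-fold. The median signal of these arrays was 131.5 to 201.2, and 3 arrays a group limit the precision. All 6 arrays read as their labels say. Xist was at background, at 6.91 to 7.31, and the Y-linked Eif2s3y at 12.5 to 13.5 at 5 days and 12.3 to 13.0 in controls. The strain markers Glo1 (17.1 to 17.7 at 5 days and 17.4 to 17.9 in controls) and Alad (14.7 to 15.1 and 14.5 to 15.1) lay above the C57BL/6J controls, which were at 15.55 to 15.86 and 11.83 to 12.98. The rod genes that define the tissue were the brightest of all cell type lists. A probe is called where limma, fitted to all 18 arrays with 1 mean per group, gave a Benjamini-Hochberg adjusted p under 0.03 over all probes, and "rose" and "fell" are kept for called probes.

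At 5 days 31 probes were called. Of the 46116 probes 18 rose (0.0390%) and 13 fell (0.0282%), and after quantile normalization 16 were higher and 22 lower. The risers carry 13 named genes and 5 probes with no gene in the annotation, and the 13 that fell are all named. The largest rises were in Edn2 and Gal, secreted signals of the endothelin and galanin families. Other risers were Mmp12, a macrophage protease, Col16a1 and Gap43, the growth cone protein. Rpl7 and Rpl10a, of the large ribosomal subunit, fell with the calcium sensor Caln1 and the histone H2ac20. In all 31 probes the 5-day and control arrays did not overlap. Over all probes 3230 (7.00%) had every 5-day array above and 4861 (10.5%) every 5-day array below all controls.

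Edn2 encodes endothelin 2, a vasoactive peptide that injured photoreceptors are known to release onto Mueller glia. It scored 12.80, 15.95 and 13.43 on the 5-day arrays, against 9.16, 9.01 and 8.59 on the control arrays. Every 5-day array lay more than 3 units above every control, and replicate 2 stood highest. The difference was 5.14 ± 0.60 (SE, n = 3 each, limma adjusted p = 0.0032), or 7.52-fold after quantile normalization. In C57BL/6J the same probe was at 13.80, 13.57 and 13.63 at 5 days and 9.84, 9.56 and 9.67 in controls. None of the other 5 endothelin pathway genes measured passed the unadjusted threshold. The receptor Ednrb had 9.31, 10.15 and 9.62 at 5 days and 10.04, 9.16 and 9.72 in controls, and the ligands Edn1 and Edn3 stayed near background at 7.68 to 8.09 and 6.60 to 7.15 at 5 days, against 7.53 to 7.69 and 6.65 to 6.97 in controls.

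Gal encodes galanin, a neuropeptide that neurons switch on after their axons are cut. It scored 10.71, 12.28 and 10.46 at 5 days, against 7.16, 6.69 and 6.78 in controls. The control values are near background, and the 5-day values are well above them on all 3 arrays. The difference was 4.27 ± 0.42 (limma adjusted p = 0.0011), or 5.36-fold. None of its receptors passed the unadjusted threshold. Galr2 was at 8.06 to 8.24 at 5 days and 8.14 to 8.21 in controls, and Galr3 differed by -0.12. At an unadjusted p under 0.05, 2 of the 15 neuropeptide and galanin receptor genes were higher and 1 lower. Crh, the corticotropin-releasing hormone, had a difference of 0.75 ± 0.28 (limma adjusted p = 0.3096) and the opioid precursor Pdyn one of -0.61 ± 0.19 (adjusted p = 0.1818).

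Edn2, Gal and Mmp12, the 3 genes best known as secreted injury products among the largest rises, were called in the same comparison. Whether they share regulation was not tested. The bases before their starts are shown. They are 250 bases of the RefSeq promoter table (GRCm38.p6, the C57BL/6J reference), on the gene's own strand, and Mmp12 has 2 annotated starts.
Edn2 (chr4:120160956-120161205, + strand): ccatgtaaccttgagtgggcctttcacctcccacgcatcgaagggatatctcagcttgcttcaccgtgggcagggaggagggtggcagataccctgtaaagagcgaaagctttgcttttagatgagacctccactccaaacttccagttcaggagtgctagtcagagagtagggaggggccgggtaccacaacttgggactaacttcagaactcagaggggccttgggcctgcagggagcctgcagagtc
Gal (chr19:3414545-3414794, - strand): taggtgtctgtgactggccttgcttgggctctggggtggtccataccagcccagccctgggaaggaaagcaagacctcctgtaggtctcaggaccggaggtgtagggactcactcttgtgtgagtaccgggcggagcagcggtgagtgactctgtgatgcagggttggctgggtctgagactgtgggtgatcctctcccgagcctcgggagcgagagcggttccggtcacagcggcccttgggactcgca
Mmp12 (chr9:7344147-7344396, + strand): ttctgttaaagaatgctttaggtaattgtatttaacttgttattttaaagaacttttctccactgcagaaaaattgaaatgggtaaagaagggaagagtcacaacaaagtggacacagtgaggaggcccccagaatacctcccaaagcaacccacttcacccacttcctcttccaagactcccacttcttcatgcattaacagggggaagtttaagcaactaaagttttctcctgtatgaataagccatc
Mmp12 (chr9:7347124-7347373, + strand): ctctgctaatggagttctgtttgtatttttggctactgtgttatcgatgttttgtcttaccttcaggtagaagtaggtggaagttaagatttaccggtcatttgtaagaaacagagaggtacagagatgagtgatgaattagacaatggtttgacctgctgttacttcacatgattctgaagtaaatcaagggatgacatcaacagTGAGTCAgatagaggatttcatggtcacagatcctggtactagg
Capitals mark the one match found on either strand to TGANTCA, the AP-1 element, TGACGTCA, the CRE, or TTCCNGGAA, the STAT element. It begins at -44 from the second Mmp12 start. Of 32851 such windows 6.75% hold TGANTCA, 1.55% TGACGTCA and 0.913% TTCCNGGAA. The Sec22c window (chr9:121705030-121705279, - strand) held none of the 3 motifs. A match is a description of the letters in this window.

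Mmp12, macrophage elastase, scored 9.37, 9.64 and 9.10 at 5 days, against 7.04, 7.17 and 6.91 in controls. The control values are at background and the 3 arrays at 5 days lie close together. The difference was 2.33 ± 0.31 (limma adjusted p = 0.0087), or 2.47-fold. A second Mmp12 probe stayed at background, with means of 6.73 at 5 days and 6.91 in controls. Pbxip1, a protein that binds PBX homeodomain factors and oestrogen receptors, scored 10.18, 10.94 and 10.22, against 8.18, 8.36 and 8.79 in controls, a difference of 2.00 ± 0.22 (adjusted p = 0.0029). Its other probe lay 1.15 higher. Sec22c, a protein of the early secretory pathway, scored 10.33, 11.10 and 10.20, against 8.21, 7.98 and 8.51 in controls, a difference of 2.31 ± 0.28 (adjusted p = 0.0036). Of its 3 other probes the brightest lay 2.21 higher at an unadjusted p of 0.0205, and the 2 at background differed by -0.19 and -0.05.

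Col16a1, a minor collagen of fibril surfaces, scored 9.49, 10.19 and 9.09 at 5 days, against 7.98, 8.02 and 7.65 in controls. Its difference was 1.71 ± 0.25 (limma adjusted p = 0.0158), and each 5-day array lay at least 1 unit above the highest control. Cp, ceruloplasmin, a copper-carrying ferroxidase that Mueller glia make after injury, scored 8.61, 9.65 and 8.45, against 6.82, 7.19 and 7.21 in controls, a difference of 1.83 ± 0.27 (adjusted p = 0.0172). Its probes did not move together. One more lay 2.17 higher and the brightest lay 0.41 lower, at unadjusted p of 0.0284 and 0.1888. Gap43, the growth-associated protein of extending axons, scored 13.08, 13.52 and 13.53, against 11.89, 11.28 and 12.25 in controls. Its difference was 1.57 ± 0.25 (adjusted p = 0.0235), and the 5-day arrays were closer together than the controls.

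Prrc2c, an RNA-binding protein, had 4 probes that all lay higher. The called probe scored 10.79, 12.04 and 10.69 at 5 days, against 8.90, 9.36 and 9.23 in controls (2.01 ± 0.31, limma adjusted p = 0.0207), and its 3 other probes lay 1.70, 2.56 and 1.12 higher. The remaining risers were the cullin Cul5 (1.72), the G protein subunit Gnaq (1.38), Lpcat3, an enzyme that remodels phospholipids (1.28), and the export receptor Xpo6 (1.18). For Cul5 and Xpo6 the brightest probe of the gene lay at -0.02 and -0.36. In all, 18 of the 26 called genes had more than 1 probe, and for 9 of the 18 all other probes lay in the direction of the call.

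Among the genes that fell, Rpl7, a protein of the large ribosomal subunit, had the smallest adjusted p. It scored 15.14, 14.79 and 15.03 at 5 days, against 16.33, 16.39 and 16.35 in controls, and fell by 1.37 ± 0.16 (limma adjusted p = 0.0029). Rpl10a fell by 1.08 (adjusted p = 0.0235). After quantile normalization their adjusted p were 0.0583 and 0.3511, so the 2 ribosomal calls depend on the scaling. H2ac20, a replication-type histone H2A, scored 12.97, 13.18 and 12.73, against 14.43, 14.33 and 14.39 in controls, and fell by 1.43 ± 0.18 (adjusted p = 0.0049). Elmo1, an engulfment and cell motility adaptor, scored 12.23, 11.74 and 12.05, against 13.66, 13.63 and 13.02 in controls, and fell by 1.43 ± 0.19 (adjusted p = 0.0076).

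Caln1, a neuronal calcium sensor, scored 10.54, 10.36 and 10.76 at 5 days, against 12, 12.01 and 11.65 in controls, and fell by 1.34 ± 0.19 (limma adjusted p = 0.0158). Mgst3, a glutathione transferase, scored 10.30, 10.17 and 10.38, against 11.76, 11.51 and 11.60 in controls. It fell by 1.34 (adjusted p = 0.0172), and its second probe lay 1.23 lower (adjusted p = 0.0445). Tef, a PAR bZIP factor with a daily rhythm, scored 14.79, 14.64 and 14.58, against 15.93, 15.80 and 15.88 in controls, and fell by 1.20 (adjusted p = 0.0158, 0.0848 after quantile normalization). The other genes that fell were the mitochondrial serine carrier Sfxn1 (-1.10), Bccip (-1.04), the translation inhibitor Pdcd4 (-1.02), the phosphatase methylesterase Ppme1 (-0.93), the ubiquitin ligase RING subunit Rbx1 (-0.92) and Mea1 (-0.90). Further probes of these genes did not pass an unadjusted p under 0.05. They lay at 0.07 for Sfxn1, at 0.15, -0.28 and 0.05 for Bccip, and at -0.32 for Pdcd4. The brightest Rbx1 probe lay at -0.38 and the second Mea1 probe at -0.35.

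**Figure D1:**
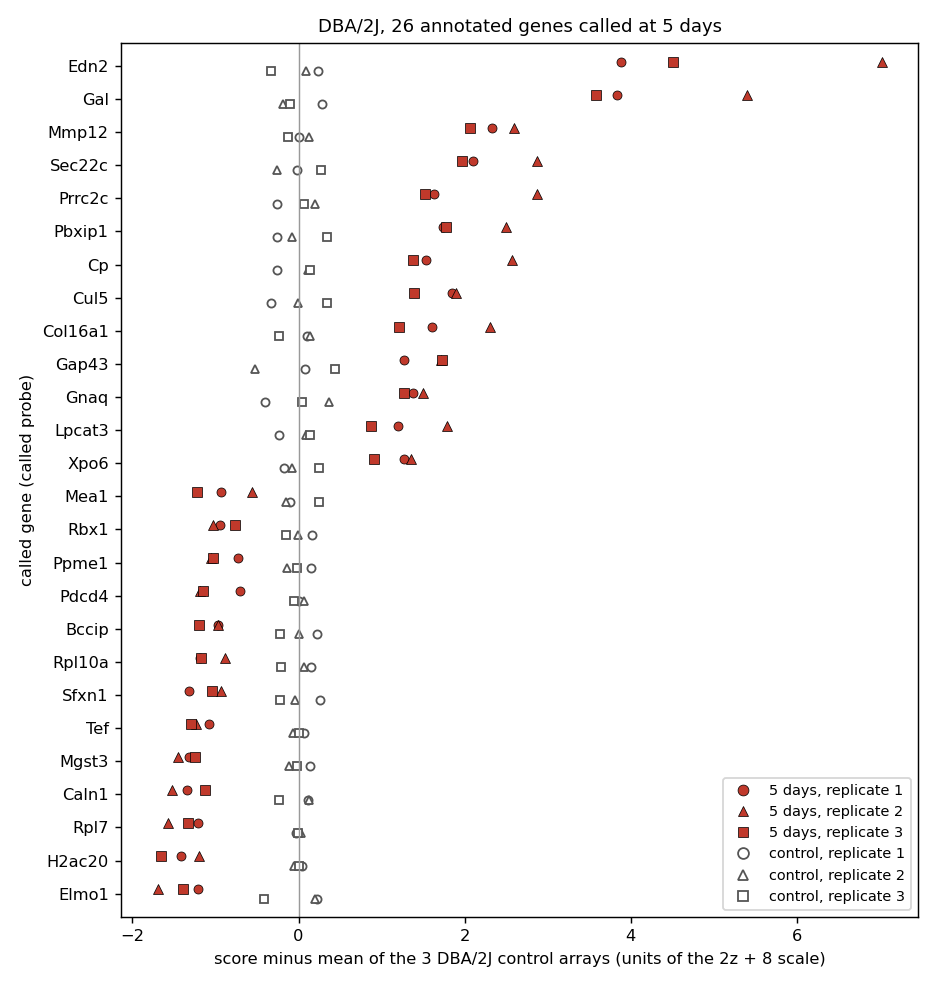
Score of each of the 6 DBA/2J arrays minus the mean of the 3 control arrays, in units, for the called probe of the 26 annotated genes, with filled symbols for 5 days, open symbols for controls and 1 symbol shape per replicate. Edn2 and Gal lie farthest to the right at 5 days, and replicate 2 is the highest 5-day array for most risers.

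Not all of these calls held when a single array was taken away. Edn2, Gal, Pbxip1, Rpl7 and 2 of the unannotated probes were called in each of the 6 fits without 1 array. Without 5-day replicate 2, which was the highest 5-day array for 15 of the 18 risers, 10 of the 31 probes were still called, and the differences were 4.19 for Edn2, 3.71 for Gal, 2.19 for Mmp12 (limma adjusted p = 0.0448), 1.41 for Col16a1 and 1.46 for Cp (0.0413 each) and 1.50 for Gap43 (0.0898). Without 5-day replicate 1 and 3 those still called were 10 and 17, and without control replicate 1, 2 and 3 they were 6, 10 and 26. Sec22c and H2ac20 lost the call only without control replicate 1, at adjusted p of 0.0352 and 0.0498. Ppme1 was called in none of the 6, with adjusted p of up to 0.1657. No call changed direction.

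Just below the threshold lay genes of the same 2 directions. Crym, mu-crystallin, a thyroid hormone binding protein and no relative of the lens crystallins, scored 14.68, 16.38 and 14.68 at 5 days, against 13.01, 12.16 and 13.34 in controls (2.41 ± 0.41, limma adjusted p = 0.0348). Tnfrsf1a, a TNF receptor, differed by 1.30 (adjusted p = 0.0339), the axonal adhesion protein Nfasc by 1.42, the LIM protein Pdlim4 by 1.72, the chromatin proteins Rbbp4 and Asxl2 by 1.88 and 0.73, the hypoxia factor Hif3a by -1.26 and the tubulin Tuba4a by -1.04. These values sit beside the called ones, and the threshold marks no gap among them.

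Ganglion cell markers were lower at 5 days, by a similar amount on each array. Of 17 markers measured 11 were lower and none higher at an unadjusted p under 0.05, and none was called. The same threshold was passed upward by 917 of all 17655 genes (5.19%) and downward by 1395 (7.90%). Without 5-day replicate 2 these counts over all genes were 658 and 1165, and after quantile normalization 859 and 1599. Counts of lists under those settings are to be read beside them. The median difference of the markers was -0.54, against -0.06 over all genes, and their mean lay 0.68, 0.77 and 0.69 below the control mean on 5-day replicates 1, 2 and 3. In bulk retina fewer ganglion cells and less RNA per cell cannot be told apart.

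Chrna6, a nicotinic receptor subunit that marks ganglion cells, scored 9.38, 8.35 and 9.27 at 5 days, against 10.49, 10.02 and 10.62 in controls (-1.38 ± 0.24, limma adjusted p = 0.0388). Nrn1, neuritin, a membrane-anchored growth protein, had 11.06, 10.61 and 11.59, against 13.08, 12.79 and 12.46 in controls (-1.69 ± 0.32, adjusted p = 0.0507). Rbpms, an RNA-binding protein that marks nearly all ganglion cells, had 11.37, 10.10 and 10.74, against 12.01, 12.21 and 11.82 in controls (-1.28 ± 0.27, adjusted p = 0.0702). The groups do not overlap for any of these. Thy1, the surface glycoprotein long used to count ganglion cells, had 12.40, 13.09 and 12.82, against 14.93, 15 and 14.22 in controls (-1.95 ± 0.44, adjusted p = 0.0823), a 2.04-fold lower signal after quantile normalization. Without 5-day replicate 2 the median of the list was -0.59 and 9 markers were lower at an unadjusted p under 0.05.

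**Figure D2:**
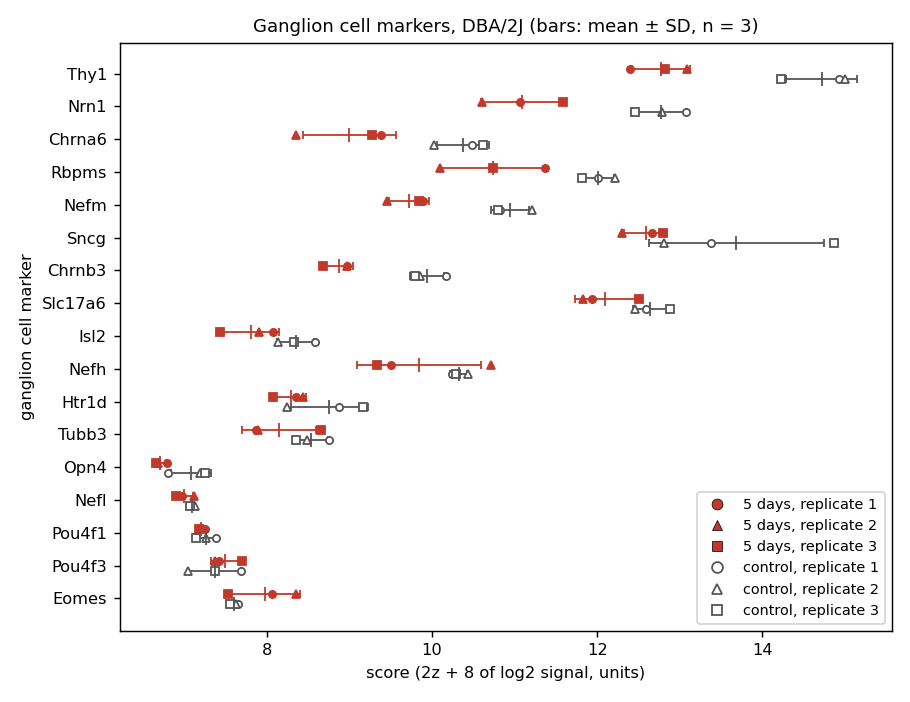
Scores of the 17 ganglion cell markers on the DBA/2J arrays in units, 5 days above control for each gene, with points for arrays and bars for the mean ± SD (n = 3). The 5-day arrays lie left of the controls for Thy1, Nrn1, Rbpms and Chrna6, and the 3 arrays at 5 days do not order in 1 way.

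Genes of neurons that release transmitter lay lower too, in part. Of 15 genes of calcium binding and transmitter release 5 were lower and 1 higher at an unadjusted p under 0.05, with a median of -0.44 (-0.08 log2 after quantile normalization). Without 5-day replicate 2 the median was -0.02, and again 5 were lower and 1 higher. Besides Caln1, Calb2 (calretinin, of amacrine and ganglion cells) had 14.45, 14.48 and 14.83 at 5 days, against 15.88, 15.25 and 15.98 in controls (-1.11 ± 0.22, limma adjusted p = 0.0532). Cplx1, a complexin that clamps vesicle fusion, had 14.22, 14.03 and 14.42, against 16.01, 14.59 and 16.23 in controls (-1.39 ± 0.35, adjusted p = 0.1203), and the vesicle protein Vamp1 differed by -0.67 ± 0.17.

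Genes known to follow axon injury lay higher in part. At an unadjusted p under 0.05, 8 of 20 on the list were higher and none lower, of which Gal and Gap43 rose, and the median was 0.28. Sox11, a transcription factor that drives growth genes in injured neurons, had 10.41, 10.38 and 10.34 at 5 days, against 8.65, 8.68 and 8.72 in controls (1.69 ± 0.32, limma adjusted p = 0.0493). Its arrays agree within 0.1 units in each group, while the error comes from the spread over all 6 groups of the series. Ecel1, a neuronal endopeptidase of the damage response, had 8.88, 9.10 and 8.34, against 6.63, 6.86 and 7.02 in controls (1.93 ± 0.46, adjusted p = 0.0975). Without 5-day replicate 2 the list had 5 genes higher and 1 lower.

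The stress and cell death genes split. At an unadjusted p under 0.05, 5 of 18 measured were higher and 1 lower, with a median of 0.05. Gadd45b, a stress-induced gene, had 8.82, 11.19 and 8.56 at 5 days, against 7.21, 7.58 and 7.38 in controls (2.14 ± 0.51, limma adjusted p = 0.1027). Chac1, a target of the unfolded protein response that degrades glutathione, had 9.29, 10.29 and 8.91, against 7.76, 7.64 and 7.69 in controls (1.80 ± 0.44, adjusted p = 0.1056). The p53 target Cdkn1a had 8.11, 8.93 and 7.99, against 6.94, 7.32 and 7.36 in controls, and Atf5 differed by 0.55 ± 0.17. All 3 arrays at 5 days lay above the controls for these 4 genes. Immediate early genes had a median of 0.47 with 4 of 15 higher, among them the AP-1 subunit Jund at 8.16, 8.45 and 8.35, against 7.93, 7.79 and 7.79 in controls. Without replicate 2, 1 of the 15 was higher, against 658 of all 17655 genes.

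Reactive gliosis genes lay highest of the lists. At an unadjusted p under 0.05, 14 of 18 genes were higher and none lower, and the median was 1.86. Only Edn2 was called by the brightest probe of the gene. S100a6, a calcium-binding protein of reactive glia, had 13.13, 15.06 and 13.04 at 5 days, against 10.20, 9.29 and 10.38 in controls (3.79 ± 0.68, limma adjusted p = 0.0438). Stat3, the transcription factor of cytokine receptors, had 12.78, 14.67 and 13.18, against 10.33, 11.20 and 11.36 in controls (2.58 ± 0.47, adjusted p = 0.0465). Gfap, the intermediate filament that Mueller glia switch on after injury, had 10.06, 12.17 and 9.83, against 8.03, 7.82 and 7.43 in controls (2.92 ± 0.59, adjusted p = 0.0583). For each of these genes all 5-day arrays lie above all controls and replicate 2 is the highest.

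The list as a whole had the same order. Its mean deviation from the controls was 1.12, 3.14 and 1.05 on 5-day replicates 1, 2 and 3, and replicate 2 held the highest 5-day value for 16 of the 18 genes. Without replicate 2 the median was 0.92 and 11 genes were higher at an unadjusted p under 0.05. Of the Mueller glia markers outside this list, 2 of 11 were higher and 1 lower at that threshold. Clu, clusterin, differed by 0.99 ± 0.28 and the carbonic anhydrase Car14 by -1.68 ± 0.42 (limma adjusted p = 0.1590 and 0.1114).

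Microglia, macrophage and complement genes had 12 of 20 higher and none lower at an unadjusted p under 0.05, with a median of 0.79. Over all genes 5.19% were higher and 7.90% lower at that threshold. Laptm5, a lysosomal protein of blood-derived cells, had 10.45, 11.61 and 10.30 at 5 days, against 9.24, 9.27 and 9.15 in controls (1.56 ± 0.33, limma adjusted p = 0.0702). The fractalkine receptor Cx3cr1, which marks microglia, had 7.69, 8.18 and 7.87, against 7.40, 7.37 and 7.47 in controls (0.50 ± 0.14). Complement C4b had 7.99, 9.13 and 8.36, against 7.43, 7.94 and 7.28 in controls (0.94 ± 0.28). Means of the list lay 0.49, 1.49 and 0.55 above the controls on replicates 1, 2 and 3, and without replicate 2 there were 6 genes higher and a median of 0.38. Lymphocyte and neutrophil markers were at background on every array, with list means of 6.91 to 7.00 at 5 days and 6.98 to 7.02 in controls, and none of the 7 passed.

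Interferon and antigen presentation genes had 11 of 20 higher and none lower at an unadjusted p under 0.05, with a median of 0.88. Over all genes 5.19% were higher and 7.90% lower at that threshold. The list means were 0.51, 2.05 and 0.43 above the controls on replicates 1, 2 and 3. Ifi27 had 11.07, 12.53 and 10.95 at 5 days, against 9.62, 8.73 and 9.87 in controls (2.11 ± 0.50, limma adjusted p = 0.1008). Ifitm3, a membrane protein that blocks virus entry, had 9.79, 12.76 and 9.59, against 8.10, 8.28 and 8.51 in controls (2.42 ± 0.67). B2m, the light chain of class I molecules, had 12.68, 15.11 and 12.86, against 11.46, 11.07 and 11.45 in controls (2.23 ± 0.65). Ifitm1 had 10.04, 12.49 and 10.06, against 8.92, 8.73 and 9.13 in controls (1.94 ± 0.59). Replicate 2 was the highest 5-day array for 19 of the 20 genes. Without it 4 genes were higher and 1 lower and the median was 0.39.

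**Figure D3:**
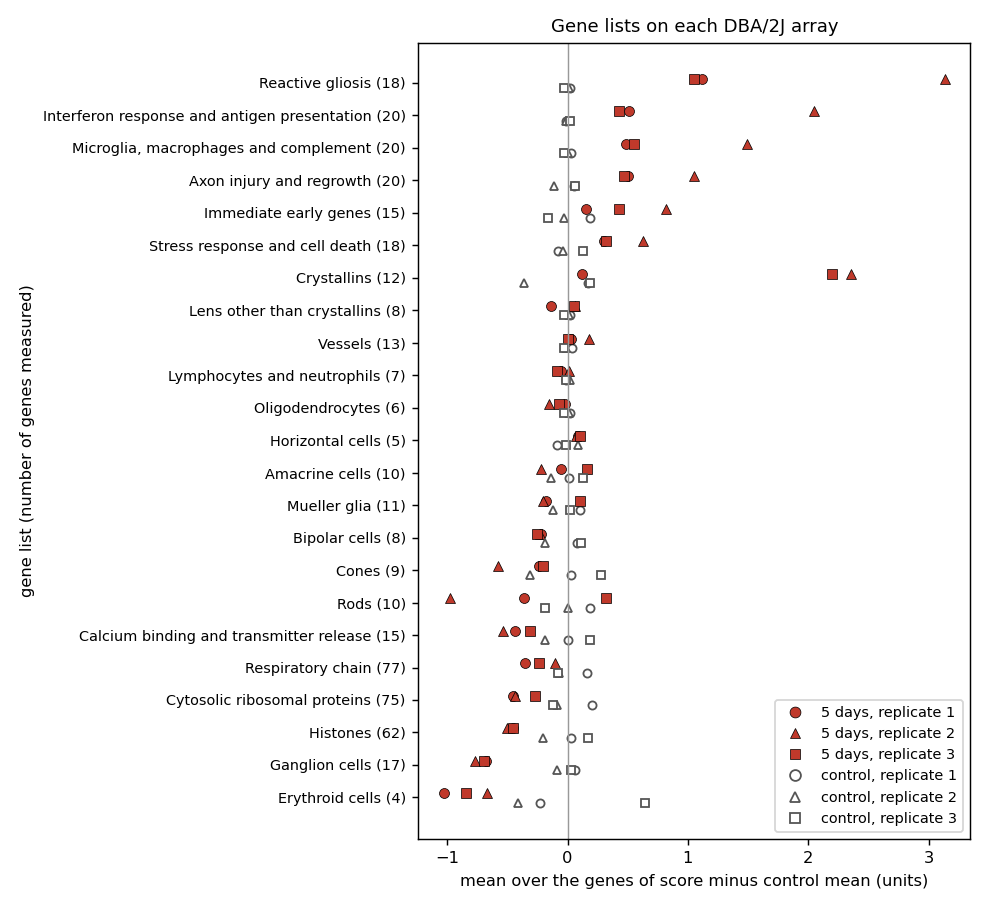
Mean over the genes of a list of the score minus the control mean, in units, for each of the 6 DBA/2J arrays, with the number of genes measured beside each list. On 5-day replicate 2 the gliosis, interferon and microglia lists stand at 3.14, 2.05 and 1.49, while ganglion cell markers lie at -0.77 to -0.68 on all 3 arrays at 5 days.

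Replicate 2 stood apart from the other 5-day arrays in these lists, and its spread was followed over all probes. Over the 23058 brighter probes the deviations from the control mean correlated at 0.62 between replicates 1 and 2, 0.81 between 1 and 3 and 0.53 between 2 and 3. These 3 correlations share the control mean and are descriptions. Their SD was 0.49, 0.66 and 0.48 on replicates 1, 2 and 3. The median SD per bright probe was 0.21 at 5 days and 0.24 in controls, and an SD over 1 unit was found for 275 probes at 5 days and 732 in controls. The spread at 5 days was thus no wider than in controls over most probes, and it was wide for a small set of genes.

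Among the 100 genes with the largest SD over the 5-day arrays replicate 2 was the highest for 76 and the lowest for 19. Lcn2, lipocalin 2, an iron-siderophore binding protein of acute inflammation, had the largest SD. It scored 9.14, 16.08 and 8.39 at 5 days, against 7.75, 8.04 and 8.08 in controls (3.25 ± 1.30, limma adjusted p = 0.3399), and the difference was 0.81 without replicate 2. Timp1, an inhibitor of metalloproteinases, scored 8.34, 13.54 and 8.23, against 7.88, 8.14 and 7.71 in controls. Hmox1, heme oxygenase 1, scored 7.92, 12.42 and 7.92, against 7.10, 7.25 and 7.77 in controls. For these genes all 5-day arrays lie above all controls, and replicate 2 lies more than 4 units above the other 5-day arrays.

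Chil1, a chitinase-like protein of reactive glia, scored 10.51, 14.70 and 10.71 at 5 days, against 10.37, 9.93 and 10.51 in controls. Nupr1, a stress-induced nuclear protein, scored 10.91, 14.98 and 11.17, against 9.34, 9.13 and 10.44 in controls. Socs3, the feedback inhibitor of Stat3 signalling, scored 9.27, 12.63 and 8.58, against 7.72, 7.51 and 7.74 in controls. The acute phase protease inhibitor Serpina3n scored 10.67, 14.25 and 10.46, against 9.03, 9.01 and 9.27 in controls. For Nupr1, Socs3 and Serpina3n too all 3 arrays at 5 days lay above the controls.

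**Figure D4:**
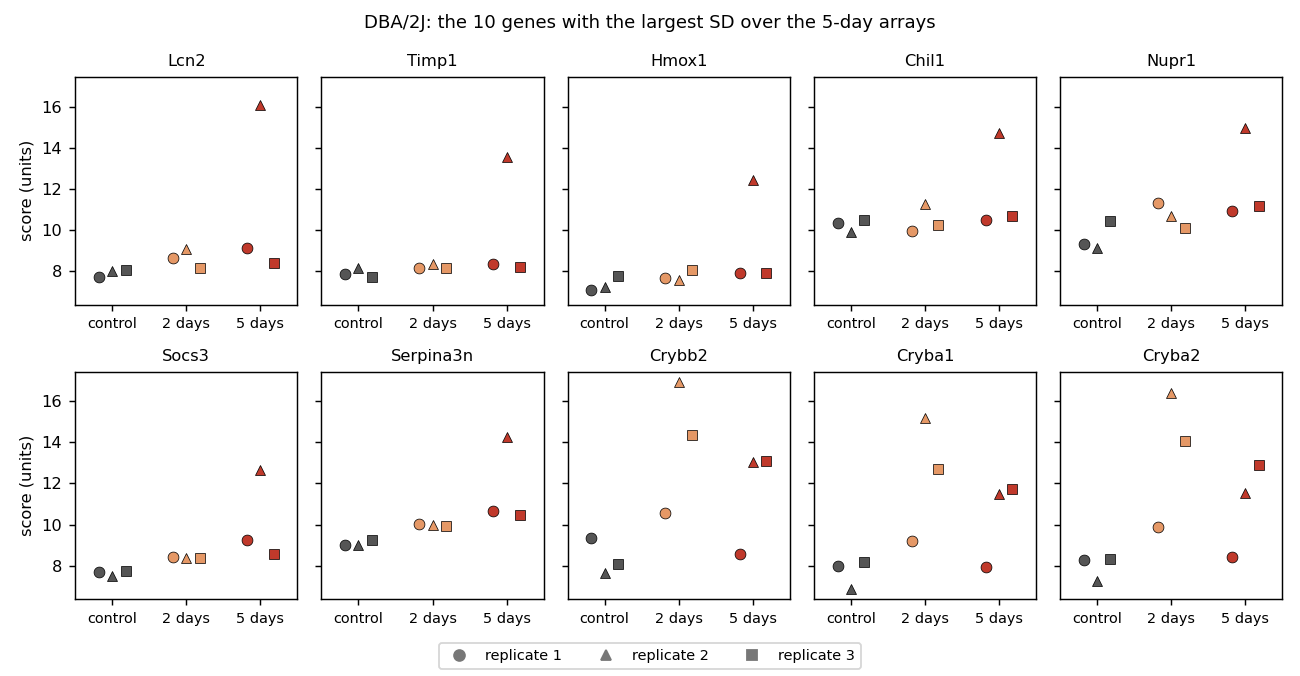
Scores in units of the 10 genes with the largest SD over the 3 DBA/2J 5-day arrays, on the control, 2-day and 5-day arrays of the strain, with 1 symbol shape per replicate. Lcn2, Timp1 and Hmox1 are far higher on 5-day replicate 2 than on any other array shown, and the 3 crystallin genes are high on 5-day replicates 2 and 3 and on 2-day replicates 2 and 3.

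The other kind of spread was in the crystallins, the structural proteins of the lens, some of which neurons and glia also make. Crybb2 scored 8.57, 13.05 and 13.11 at 5 days, against 9.36, 7.67 and 8.11 in controls (3.20 ± 2.28, limma adjusted p = 0.6706). Cryba2 scored 8.44, 11.52 and 12.89, against 8.28, 7.26 and 8.32 in controls. Cryba1 scored 7.95, 11.48 and 11.71, against 7.97, 6.89 and 8.19 in controls. Replicate 1 was at the level of the controls and replicates 2 and 3 stood about 3 units or more above it.

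All 12 crystallins had a higher mean at 5 days, with a median of 1.38, and none passed the unadjusted threshold. Their list means were 0.12, 2.36 and 2.20 above the controls on replicates 1, 2 and 3. Cryab, the small heat shock protein that the retina itself expresses, scored 12.64, 14.21 and 13.71, against 12.56, 12.23 and 13.04 in controls. The 8 other lens genes measured had list means of 6.87, 7.07 and 7.06 at 5 days and 7.03, 7.02 and 6.98 in controls, at background on all 6 arrays, and none passed. Mip, the lens aquaporin, was at 7.42, 7.77 and 7.87, against 7.48, 7.41 and 7.37 in controls. The part of lens tissue in the crystallin values was not tested beyond these levels.

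Groups of abundant transcripts leaned down. Of 62 histone genes 26 were lower and none higher at an unadjusted p under 0.05, with a median of -0.32, of which H2ac20 fell. H2bc22 had 14.42, 14.56 and 14.45 at 5 days, against 15.86, 15.12 and 15.59 in controls (-1.05 ± 0.22, limma adjusted p = 0.0704), and H3c11 and H4c8 differed by -0.62 and -0.55. After quantile normalization 25 were lower. Of 75 cytosolic ribosomal protein genes 23 were lower and none higher, with a median of -0.48, but after quantile normalization 12 were lower and 1 higher with a median of -0.11 log2, against -0.03 log2 over all genes. Of 77 respiratory chain genes 21 were lower and none higher, and 12 and 2 after quantile normalization. Rpl34 (-1.20 ± 0.22), Rpl8 (-0.97 ± 0.18) and the respiratory subunits Uqcr11 (-1.10 ± 0.24) and Ndufc1 (-0.92 ± 0.21) had, with the called ones, the smallest p of their lists. The proteasome had 5 of 39 lower and 1 higher, and 4 each way after quantile normalization. The 1 higher was Psmb8, an immunoproteasome subunit, at 8.51, 10.77 and 8.31, against 7.57, 7.79 and 7.49 in controls, while Psmd4 and Psmb3 differed by -1.03 and -0.78 (adjusted p = 0.0421 and 0.0532).

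In the lists of the other retinal neurons no gene was called, while some passed an unadjusted p under 0.05, mostly downward. Rod genes had list means of 17.8, 17.2 and 18.5 at 5 days and 18.4, 18.2 and 18.0 in controls, and none of 10 passed. Replicate 2, on which the glial and interferon lists were highest, had the lowest rod mean of the 6 arrays, and its part in those lists was not tested. The list had a median of -0.64 on the unit scale and -0.09 log2 after quantile normalization. At an unadjusted p under 0.05, 7.90% of all genes were lower. The same held for 3 of 9 cone genes, 2 of 8 bipolar genes and 1 of 10 amacrine genes. After quantile normalization these counts were 1, 3 and 2, and without 5-day replicate 2 they were 1 in each list. Cone arrestin Arr3 had 12.94, 12.71 and 12.40 at 5 days, against 14.19, 13.45 and 14.78 in controls (-1.45 ± 0.48, limma adjusted p = 0.2272), and the G protein subunit Gng13 of ON bipolar cells had 17.07, 16.48 and 16.67, against 17.77, 17.29 and 17.75 in controls (-0.87 ± 0.29, adjusted p = 0.2334). The horizontal cell factor Onecut1 and the amacrine enzyme Gad2 lay higher, by 0.53 ± 0.20 and 0.27 ± 0.13.

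Markers of cells from outside the neural retina were checked on the same arrays. None of 13 vessel genes, 14 pigment epithelium and melanocyte genes or 7 lymphocyte and neutrophil genes passed an unadjusted p under 0.05. Among 11 striated muscle genes Ckm was lower (-0.34 ± 0.14), at background in both groups, and 1 of 6 oligodendrocyte genes was lower. Of 4 erythroid genes 2 were lower. Hba-a1, an alpha globin, had 11.88, 13.39 and 12.04 at 5 days, against 14.04, 13.86 and 15.42 in controls (limma adjusted p = 0.1703), and the beta globin Hbb-bs had 13.09, 13.01 and 13.15, against 13.66, 13.70 and 15.49 in controls. Control replicate 3 is the highest for both, and the part of blood in other differences was not tested.

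Smaller pathways were mixed. Genes are counted here as higher or lower at an unadjusted p under 0.05. Over all genes 5.19% were higher and 7.90% lower at that threshold. Of 14 iron, copper and metal genes 4 were higher and 1 lower, and without 5-day replicate 2 there were 2 higher and none lower. Trf, transferrin, had 11.97, 12.41 and 12.18 at 5 days, against 9.52, 9.57 and 11.41 in controls (2.02 ± 0.48, limma adjusted p = 0.1027), the iron exporter Slc40a1 differed by 0.43 ± 0.13, and the transferrin receptor Tfrc by -0.78 ± 0.30. Of 23 matrix genes 5 were higher and none lower, and 2 were higher without 5-day replicate 2. Besides Mmp12 these included Col5a1, Mmp14 and Timp2, with differences of 0.55 ± 0.15, 0.67 ± 0.22 and 0.75 ± 0.31. In cholesterol synthesis 2 of 14 genes were lower, Fdps at 11.88, 11.58 and 11.99, against 13.20, 12.92 and 13.74 in controls (-1.47 ± 0.34, adjusted p = 0.0888), and Hmgcs1 (-0.78 ± 0.25). Of 12 cell cycle genes 7 had a higher mean at 5 days, and Mki67 alone passed the threshold (0.27 ± 0.09). It was at 7.87 to 7.93 at 5 days and 7.57 to 7.72 in controls, close to background. In membrane traffic 1 of 18 genes was lower, Sar1b (-1.01 ± 0.27), and 1 higher, Sec22c. Of the 10 genes that the study itself measured by qRT-PCR, which were its own picks from these arrays, 5 were higher and 2 lower. Actb, the reference transcript beta-actin, had 15.80, 15.61 and 16.34, against 15.90, 15.59 and 16.15 in controls.

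How much of the 5-day state had formed by 2 days was asked of the 3 DBA/2J arrays at 2 days. The comparison of 5 with 2 days called no probe (0% of 46116, limma), and it shares the 5-day arrays with the comparison above. Of the 46116 probes 2252 were at an unadjusted p under 0.05. This is a smaller share than the 0.05 that would pass with no change at all. Edn2 and Gal had the smallest adjusted p, 0.1145 each. Edn2 scored 9.16, 9.01 and 8.59 in controls, 10.60, 10.02 and 8.89 at 2 days, and 12.80, 15.95 and 13.43 at 5 days, and lay 4.22 ± 0.60 higher at 5 than at 2 days. Gal scored 7.16, 6.69 and 6.78 in controls, 7.44, 9.01 and 8.48 at 2 days, and 10.71, 12.28 and 10.46 at 5 days, and lay 2.84 ± 0.42 higher. The 5-day arrays of both genes lie above all 2-day arrays.

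Replicate 1 at 2 days read like the other strain, with Glo1 at 16.3, Alad at 12.7 and Gpnmb at 9.42, against Gpnmb at 7.27 to 7.55 on the other 2 arrays. Without it 2004 of the 46116 probes were at an unadjusted p under 0.05, again a share below 0.05. The smallest adjusted p was 0.2904. Without 5-day replicate 1 Edn2 (4.85, limma adjusted p = 0.0236) and Sulf1, a heparan sulfatase (1.23, 0.0232), passed. Sulf1 was named after its value was seen. Mmp12 and Sox11 were already above the controls at 2 days. Mmp12 had 7.04, 7.17 and 6.91 in controls, 9.02, 10.08 and 8.98 at 2 days and 9.37, 9.64 and 9.10 at 5 days. Sox11 had 8.65, 8.68 and 8.72 in controls, 10.30, 10.20 and 9.94 at 2 days and 10.41, 10.38 and 10.34 at 5 days. Their differences of 5 against 2 days were 0.01 and 0.23, and the arrays of the 2 times overlap for Mmp12 and not for Sox11.

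The regulatory factor Rfx2, which was not called against controls (1.64 ± 0.30, limma adjusted p = 0.0465), scored 10.30, 10.47 and 9.64 in controls, 10.20, 10.40 and 9.60 at 2 days and 11.42, 12.52 and 11.41 at 5 days. It had 5-day values 1.72 ± 0.30 above those at 2 days, with 2 days at the level of the controls. Chac1 had 7.76, 7.64 and 7.69 in controls, 10.98, 10.00 and 10.21 at 2 days and 9.29, 10.29 and 8.91 at 5 days. Its mean lay 2.70 above the controls at 2 days and 1.80 at 5 days. The arrays of the 2 times overlap, and the difference between them was not called. The highest 2-day value was on replicate 1, which read like the other strain. Among genes lower at 5 than at 2 days Tef differed by -0.88 ± 0.17 and the sulfotransferase Sult4a1 by -0.55 ± 0.12 (adjusted p = 0.6232 and 0.8845).

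Whether the 5-day change was particular to DBA/2J was tested as the difference between its change and that of C57BL/6J, a strain without the pigment gene mutations. No probe was called (0% of 46116, limma, smallest adjusted p = 0.1751). At an unadjusted p under 0.05 there were 1951 of the 46116 probes, also a smaller share than 0.05. The C57BL/6J changes share no array with those of DBA/2J. Control replicate 1 of C57BL/6J read as female, with Xist at 11.3 and Eif2s3y at 7.02, and without it the smallest adjusted p was 0.8364. For the called genes the changes in DBA/2J and C57BL/6J were 5.14 and 3.98 for Edn2, 4.27 and 3.43 for Gal, 2.33 and 3.10 for Mmp12, 1.57 and 1.27 for Gap43, and -1.37 and -1.17 for Rpl7. Caln1 differed by -1.34 in DBA/2J and -2.27 in C57BL/6J. The test does not show that they were alike.

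Col16a1 was the called gene whose changes lay farthest apart. It differed by 1.71 in DBA/2J and -0.05 in C57BL/6J, where it scored 7.76, 7.88 and 7.61 at 5 days and 7.53, 7.95 and 7.92 in controls. The difference of the changes was 1.76 ± 0.35 (unadjusted p = 1.4e-04 from limma), and it was not called. Trim30a, an interferon-induced gene, had the smallest p. It scored 6.98, 7.39 and 6.75 at 5 days, against 7.17, 7.15 and 7.10 in controls of DBA/2J, and 9.66, 9.07 and 8.89 at 5 days, against 6.96, 7.15 and 7.36 in controls of C57BL/6J (-2.15 ± 0.30, adjusted p = 0.1751). The chemokine Cxcl10 was at background in DBA/2J, at 6.49, 6.39 and 6.47, against 6.63, 6.45 and 6.66 in controls, and differed by 1.59 in C57BL/6J. Since array probes can match the 2 genomes unequally, a probe at background in 1 strain alone says nothing certain of its RNA.

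A neuronal gene was among those with the smallest p for this difference. Pvalb, parvalbumin, scored 10.61, 11.71 and 10.20 at 5 days, against 12.56, 11.47 and 12.58 in DBA/2J controls (-1.36 ± 0.39), and differed by -3.80 in C57BL/6J. The difference of the changes was 2.44 ± 0.55 (unadjusted p = 4.9e-04 from limma, adjusted p = 0.9991). Bcl11b, a zinc finger factor, and the matricellular Ccn2 had DBA/2J changes of 0.15 and -0.17 and C57BL/6J changes of -0.85 and -2.72, and were not called either. Median changes of the ganglion cell markers were -0.54 in DBA/2J and -0.63 in C57BL/6J, those of the interferon list 0.88 and 1.63, those of the gliosis list 1.86 and 0.63, and those of the immediate early genes 0.47 and -0.23. Without DBA/2J 5-day replicate 2 the DBA/2J medians of these lists were -0.59, 0.39, 0.92 and 0.24, in the same order. No difference between strains was tested for a list. The crystallins had medians of 1.38 in DBA/2J and -4.58 in C57BL/6J, whose controls scored 13.52, 15.04 and 21.82 for Crybb2, against 8.64, 11.30 and 7.74 at 5 days. For Crybb2 the difference of the changes was 10.77 ± 3.23 (adjusted p = 0.9991). Other lens genes differed in C57BL/6J as well, with a list median of -1.12. Mip scored 7.25, 7.61 and 7.09 at 5 days, against 7.86, 10.14 and 17.19 in C57BL/6J controls, and replicate 3 of those controls was the highest for Mip as for Crybb2.

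**Figure D5:**
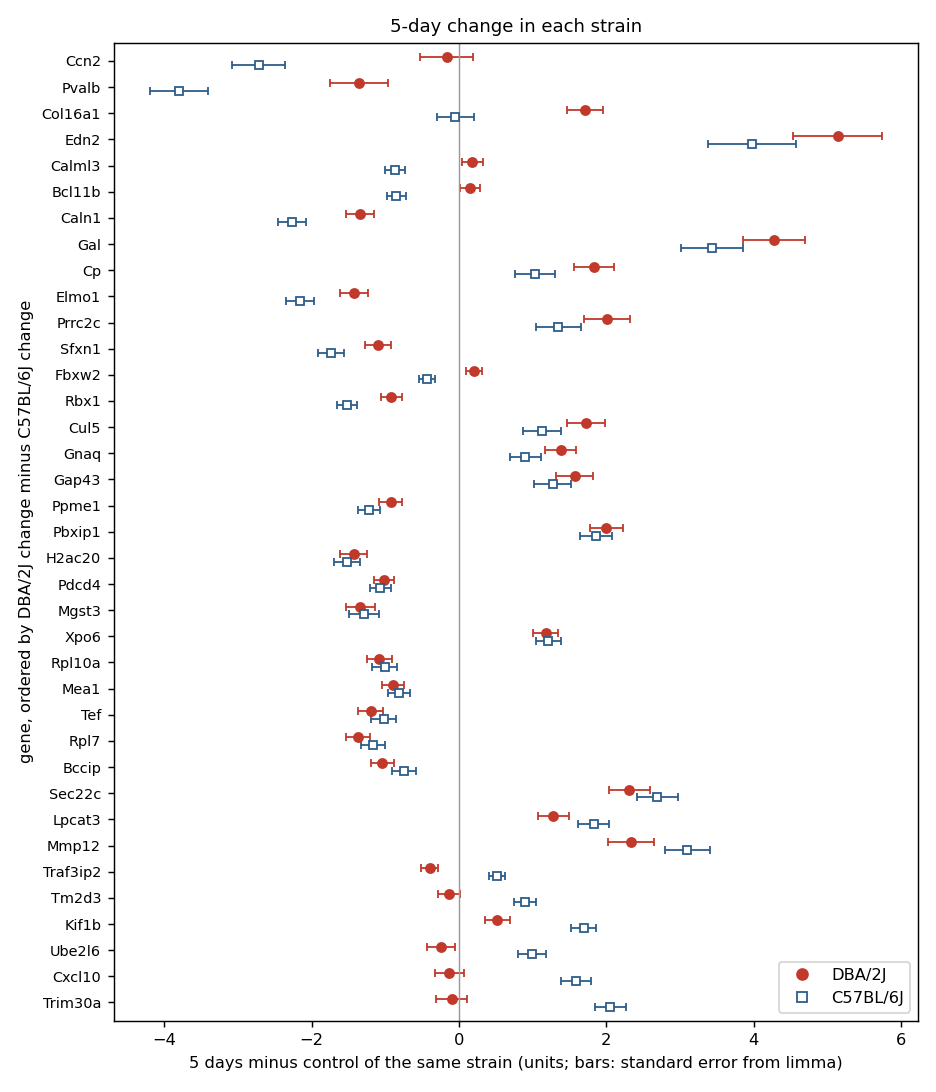
Change at 5 days against control of the same strain, in units, with bars for the standard error from limma (n = 3 each), for the called genes and the genes with the smallest p for the difference between strains, DBA/2J above C57BL/6J for each. Edn2 is at 5.14 and 3.98, Col16a1 at 1.71 and -0.05, and Trim30a at -0.10 and 2.05.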

How the data were processed

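Retinal RNA was measured on 18 Illumina Mouse-6 arrays. The authors deposited signal intensity for 46116 probes, not normalized, with no statement on background. They also deposited scores, 2 times the z-score of log2 intensity per array plus 8. Here the intensities were converted to the same scale, on which 99.7% of values equalled the deposited score within 0.02 units. For 121 probes the deposited score stood under another probe.

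With limma 3.58.1 (R 4.3.3) a mean per group was fitted over the 18 arrays (12 residual and 2.88 prior degrees of freedom). Symbols came from the platform annotation, updated through RefSeq, and the probe with the highest mean stood for a gene in lists. Folds are from quantile-normalized log2 signal. The BeadChip of an array is not named, so no block was fitted for it. Alternatives were another normalization, normexp with an offset of 50, the deposited scores, the brighter 23058 probes, an intensity trend, a replicate block, the 2 groups alone, the 16 arrays without the 2 that read like the other strain, SAM, a threshold of 0.05 and each array left out.

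Members and lists were chosen with earlier results of these data known. Named were the called genes, the 10 next below the threshold, up to 4 genes of smallest p per list or any of a list of 15 or fewer, the 6 of smallest p each way in the other 2 tests, and the 10 of largest spread. The fit was tested on simulated data. Summaries and plots used Python 3.11.15, pandas 2.3.3 and matplotlib 3.10.9.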

Additional observations from a re-analysis of the deposited data

How the results depend on the processing

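Of 135 values of single probes followed through the alternatives, 129 kept their direction in all that were run, the 31 called probes among them, while the number of calls changed. Against 31 calls (18 higher, 13 lower), the intensity trend gave 10 (10 and 0), the 2 groups alone 3 (3 and 0), SAM 238 (187 and 51) and the threshold of 0.05 gave 81 (43 and 38). Quantile normalization gave 38 with 22 lower, and the 23058 brighter probes 42 with 28 higher. Of the 31 probes 10 were still called with the trend, 1 with the groups alone, 21 by SAM, 19 after quantile normalization, 15 after normexp and 18 without the 2 arrays that read like the other strain. The share of rises among the calls was 58.1% on the main scale and 42.1% after quantile normalization. Leaving out 1 array gave 6 to 69 calls, 5 to 41 higher and 1 to 28 lower, and the highest counts came without control replicate 3. The cause was not tested.

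The 6 values that changed sign were all near 0. After quantile normalization, alone or with normexp, Glo1 differed by 0.14 log2 and Ednrb by -0.05 log2. Leaving out 1 array gave -0.16 to 0.04 for Xist, -0.19 to 0.25 for Ednrb, -0.16 to 0.11 for Edn3, -0.08 to 0.02 for Galr2 and -0.18 to 0.19 for Actb.

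With the replicate number as a block 100 probes were called (48 higher, 52 lower), the 31 among them. Deviations from the group mean of DBA/2J 5-day and control arrays with the same number correlated at -0.30, 0.17 and 0.18. These values cover 6 of the 18 arrays. They cannot decide whether the number carries a batch, and the block is given only here.

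The comparison of 5 with 2 days had 0 to 2 calls without 1 array, and the difference between strains had 0 under every alternative run. Replicate 2 was the highest 5-day array for 72 of the 100 genes of largest SD after quantile normalization and 77 over all probes, against 76. Medians of lists after quantile normalization and counts without 5-day replicate 2 were added after seeing the data. Probes near background cannot show a fall.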

Other observations

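On this array 47.9% of the probes have identifiers of 9 digits. Such identifiers were carried by 11 of the 18 probes that rose and by 0 of the 13 that fell, while the median difference was -0.04 over these probes and -0.05 over the others. The cause was not tested.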
